A study of Homo sapiens with 32 samples.

Results

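The 10 genes described are negative regulators of MAP kinase signalling, most of them of the ERK branch: the dual-specificity phosphatases DUSP1, DUSP4, DUSP5, DUSP6, DUSP7 and DUSP10, the Sprouty genes SPRY2 and SPRY4, and the Spred genes SPRED1 and SPRED2. They were chosen by name, with earlier results of these data known, as the rows whose Ensembl identifier maps to these symbols. Their counts and medians set beside those of all genes are therefore a description. The members make up 10 of the 19023 genes of the count table. Their levels were followed in RPE-1, a human retinal pigment epithelial cell line made immortal with telomerase, labelled as wild type (WT). All cells had been kept for 18 h without serum, and were collected either at that point (0 h) or after 5, 10 or 15 h with serum. Each time had 4 biological replicates of ribosome-protected fragments (Ribo-seq footprints) and 4 of total RNA depleted of ribosomal RNA (RNA-seq), 32 libraries in all. Every group shares the 18 h starvation, and no library of cells kept without serum for a further 5 to 15 h was used, so the effect of serum and that of elapsed time cannot be told apart. RPE-1 is 1 cell line, so the replicates measure the spread between its cultures.

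When serum growth factors bind receptor tyrosine kinases, Ras activates the kinases RAF, MEK and ERK in turn, and ERK enters the nucleus and switches on a programme of transcripts that includes its own inhibitors. The DUSP proteins remove phosphate from the activation loop of MAP kinases, the Sprouty proteins act upstream between receptor and RAF, and the Spred proteins recruit the Ras-inactivating protein neurofibromin to the membrane. Many of these transcripts are short-lived, which is why they serve as readouts of current pathway activity.

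Counts per library summed to between 2851423 and 9901322 in footprints and between 595851 and 1107470 in RNA, so the RNA values rest on fewer reads and carry more counting error. Levels are given as CPM, read counts scaled to a fixed library total with TMM factors within each assay, with the mean ± SD over 4 libraries. Changes are log2 ratios ± SE from edgeR's quasi-likelihood test, and a gene is called at a Benjamini-Hochberg adjusted p under 0.05 over all genes tested in that assay. Both are relative to the other genes, and in such bulk samples fewer cells expressing a gene and less RNA per cell cannot be told apart. All 10 members passed the filter on low counts in footprints, where 10959 genes were tested. In RNA 7 of the 10 passed, with 8775 genes tested, and DUSP10, SPRY4 and SPRED2 did not. Of the retinal pigment epithelium markers, the keratins KRT8 and KRT18 were abundant, MITF, OTX2, MERTK and SERPINF1 were present, and RPE65, TYR, PMEL, RLBP1 and BEST1 averaged at most 1.44 CPM of footprints at any time. In RNA, however, BEST1 averaged 10.7 CPM at 0 h, and SERPINF1 2.47 CPM. RPE65, which defines the differentiated epithelium, had no RNA count at 0, 5 and 10 h. At 5 h against 0 h 4 of 8 of these markers tested were lower and 2 higher in footprints. Of all genes 40.5% were called lower and 35.2% higher there. In RNA 3 of 5 markers were lower and 0 higher, where 16.7% of all genes were called lower and 19.2% higher. Of the markers tested in RNA, OTX2 and MERTK passed the filter through 0 h alone, so their place in the RNA count is no independent result. OTX2 had 7.4 ± 2.01 CPM of footprints at 5 h and 37.1 ± 2.01 CPM at 0 h, and MERTK 2.17 ± 0.427 CPM at 5 h and 13.8 ± 2.18 CPM at 0 h. At 15 h against 0 h the list's median log2 change in footprints was -1.43, against -0.01 for all genes, with 6 of 8 lower and 2, the keratins, higher. Of all genes 39.6% were called lower and 40.1% higher in that comparison. The part of the marker changes in the results on the members was not tested. The summed level of 8 markers of blood, endothelium, liver, neuron and muscle ran from 75.4 to 113 CPM over the footprint libraries and from 11.3 to 33.9 CPM over the RNA libraries, and was mostly CD68, a lysosomal protein of macrophages that other cells also make (86.4 to 98.3 CPM of footprints on average by time). HBB was at 0 throughout, and PTPRC, PECAM1, CDH5, ALB, NEFL and DES averaged at most 0.471 CPM of footprints and 1.68 CPM of RNA at any time.

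In RefSeq (GRCh38.p14) DUSP1 lies at chr5:172768096-172771195, DUSP5 at chr10:110497907-110511533, DUSP6 at chr12:89347235-89352501, DUSP7 at chr3:52048919-52056571 and DUSP10 at chr1:221701424-221742089. SPRY2 lies at chr13:80335976-80341126, SPRY4 at chr5:142310430-142325021, SPRED1 at chr15:38252836-38357249 and SPRED2 at chr2:65307175-65432599. The deposited lengths of the members, which are coding lengths, run from 888 bases for SPRY2 to 1389 bases for DUSP10. RefSeq promoter windows of 250 bases before and 50 bases after a start were matched for 8 of the 10 members, 12 windows in all. No window was matched for DUSP5. DUSP4 was left out of the search, so nothing is said here about motifs in its promoter. The windows were searched on both strands for the cAMP response element (CRE) TGACGTCA bound by CREB and ATF factors, its shorter core TGACG, the AP-1 motif TGANTCA, the ETS core CCGGAA and the CArG box of serum response factor. The 250 bases before the start are shown for the 3 members with the largest footprint rise at 5 h among those with a window, and for DUSP6, whose footprints changed little at 5 h. Capitals mark motif matches, and each is given 5′ to 3′ on the minus strand of the genome, on which all 4 genes lie. The windows are chr5:172771196-172771445 for DUSP1, chr13:80341127-80341376 for SPRY2, chr5:142324248-142324497 for SPRY4 and chr12:89352502-89352751 for DUSP6. The SPRY4 window precedes a start that lies inside the gene span given above, so it is not upstream of the whole gene. The others adjoin the end of their gene span.
DUSP1: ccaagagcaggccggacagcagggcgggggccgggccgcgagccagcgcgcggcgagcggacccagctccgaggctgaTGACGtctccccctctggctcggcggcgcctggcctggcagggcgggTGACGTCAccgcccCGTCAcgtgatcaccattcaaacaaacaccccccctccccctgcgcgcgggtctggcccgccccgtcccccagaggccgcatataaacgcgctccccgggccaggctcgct
SPRY2: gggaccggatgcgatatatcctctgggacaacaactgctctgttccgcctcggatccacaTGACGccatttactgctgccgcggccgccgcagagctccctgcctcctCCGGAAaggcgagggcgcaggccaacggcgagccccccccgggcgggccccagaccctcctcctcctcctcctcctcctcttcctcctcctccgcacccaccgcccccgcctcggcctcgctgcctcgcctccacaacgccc
SPRY4: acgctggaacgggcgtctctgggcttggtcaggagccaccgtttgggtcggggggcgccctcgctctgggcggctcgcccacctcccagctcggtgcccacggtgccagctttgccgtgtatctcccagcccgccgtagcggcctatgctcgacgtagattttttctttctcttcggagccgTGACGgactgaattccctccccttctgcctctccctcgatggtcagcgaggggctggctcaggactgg
DUSP6: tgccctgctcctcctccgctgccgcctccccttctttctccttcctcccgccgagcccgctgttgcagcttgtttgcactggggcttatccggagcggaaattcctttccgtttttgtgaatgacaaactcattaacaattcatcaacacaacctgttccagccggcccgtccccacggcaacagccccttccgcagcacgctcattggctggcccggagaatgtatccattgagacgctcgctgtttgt

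The DUSP1 window held 1 full CRE, from -125 to -118 relative to the start, which by its palindromic form contains 2 CRE cores. It held 2 further CRE cores, from -172 to -168 on the coding strand and from -111 to -107 on the other strand. A full CRE was present in 1.85% of all 35116 windows and a CRE core in 24.6%. SPRY2 had 1 CRE core, from -190 to -186, and 1 ETS core, from -142 to -137, a motif found in 17.2% of windows. SPRY4 had 1 CRE core, from -68 to -64 relative to its start inside the gene span. No match was found in the windows of DUSP6, DUSP7 and SPRED1. Of the other windows, 1 of DUSP10 and 1 of SPRED2 held a CRE core, and the second SPRED2 window held 2 AP-1 motifs, a motif found in 7.71% of windows. None of the 12 windows of the 8 members searched had a CArG box, which 1.29% of windows held. A match describes the letters only and does not show that a factor binds there.

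**Figure D1:**
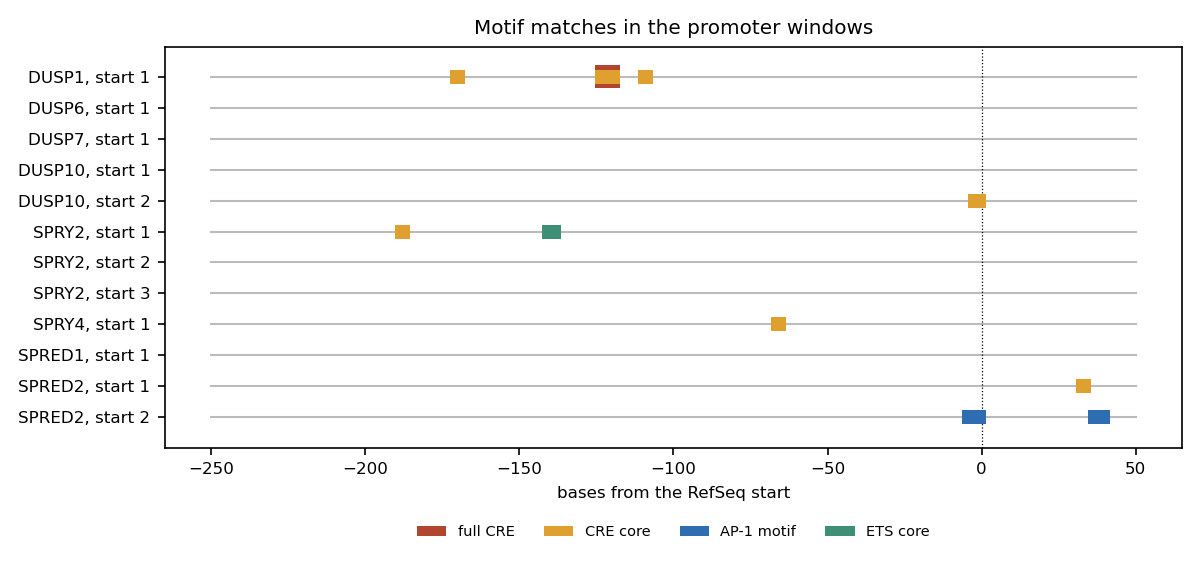
Motif matches in the 12 RefSeq promoter windows of 8 members, with the position in bases from the RefSeq start on the horizontal axis and 1 window per line. Colours mark the full CRE, CRE core, AP-1 motif and ETS core, and the DUSP1 window is the 1 line with a full CRE, at -125 to -118.

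At 5 h of serum all 10 members had changed in footprints. DUSP1, SPRY4, DUSP5, SPRY2, DUSP7, SPRED1 and DUSP6 were higher than at 0 h, and DUSP4, DUSP10 and SPRED2 were lower. Among all genes 35.2% were called higher and 40.5% lower, so a call alone is common here. The median log2 change of the 10 members was 0.90, against -0.07 for all genes tested. In RNA 6 of the 7 members tested were higher and 1, DUSP4, was lower, where 19.2% of all genes were called higher and 16.7% lower. Their median log2 change was 0.98, against -0.03 for all genes. DUSP7 is 1 of those 6, and its own value is that median. It passed the RNA filter only through its levels at 5 and 10 h, so its place in the RNA count is no independent result. The RNA count is the less firm one: DESeq2 called 4 of the 7, and edgeR called 3 without RNA replicate 2 of 0 h and 4 without RNA replicate 1 or 4 of 0 h or replicate 3 or 4 of 5 h. The 7 members tested in both assays had the same direction in footprints and RNA.

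**Figure D2:**
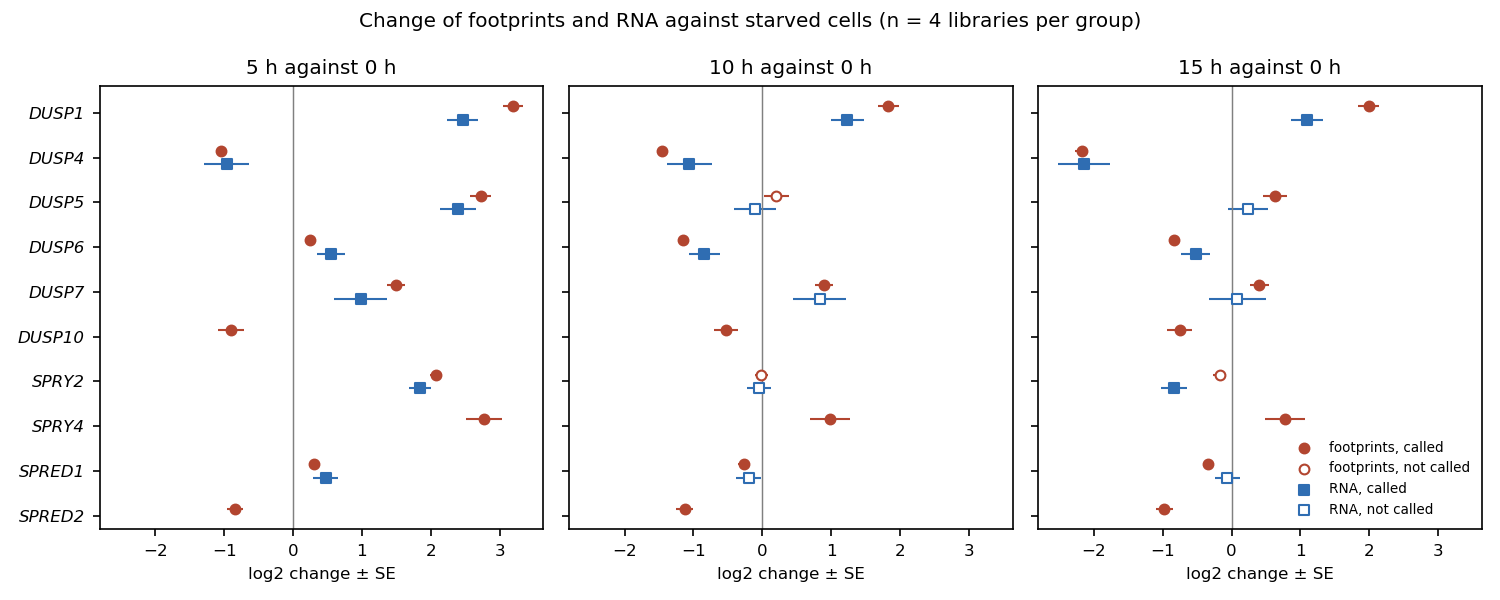
Log2 change ± SE at 5, 10 and 15 h against 0 h for the 10 members, with footprints drawn above RNA for each gene, filled where called and open where not (n = 4 libraries per group). The values at 5 h run from -1.04 for DUSP4 to 3.20 for DUSP1 in footprints, and by 10 h most members sit nearer to 0 or below it.

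DUSP1, a nuclear phosphatase of p38, JNK and ERK and a classic immediate-early gene, had the largest rise among the members in footprints. Its footprint levels were at 0 h 17.2, 15.7, 17.3 and 16.4 CPM, at 5 h 152, 120.4, 151 and 185 CPM, at 10 h 60.7, 54.5, 62.6 and 58.3 CPM, and at 15 h 73.6, 58.8, 62.4 and 72.8 CPM. Its RNA levels were at 0 h 38.8, 24.4, 40.4 and 28.4 CPM, at 5 h 139.7, 233, 199 and 150.4 CPM, at 10 h 84, 79.8, 85.9 and 61.3 CPM, and at 15 h 64.1, 62.6, 101 and 56.2 CPM. In both assays all libraries of 5, 10 and 15 h lay above all those of 0 h, and all those of 5 h lay above those of 10 and 15 h. Footprints were 9.18-fold higher at 5 h than at 0 h (log2 3.20 ± 0.15, adjusted p = 1.45e-14) and RNA 5.51-fold higher (log2 2.46 ± 0.23, adjusted p = 1.99e-08). At 10 h footprints were 2.59-fold lower than at 5 h (log2 -1.37 ± 0.10, adjusted p = 2.87e-10), and 15 h against 10 h gave 0.17 ± 0.11, adjusted p = 0.228, not called. Levels were still above the starved one, by 1.99 ± 0.15, adjusted p = 8.75e-11 in footprints and by 1.10 ± 0.24, adjusted p = 0.000557 in RNA at 15 h against 0 h.

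DUSP5, a nuclear phosphatase specific for ERK, was by far highest at 5 h among the 4 times sampled. No time between 0 and 5 h was sampled, so when it was highest is not known. DUSP5 footprints measured at 0 h 6.8, 8.5, 5.76 and 6.5 CPM, at 5 h 45, 34.4, 47.9 and 51.9 CPM, at 10 h 7.46, 7.4, 8.43 and 8.12 CPM, and at 15 h 9.89, 8.43, 11.4 and 12.4 CPM. Its RNA levels were at 0 h 15.7, 27.5, 13 and 19.4 CPM, at 5 h 84.5, 131, 111 and 79 CPM, at 10 h 15.4, 16.3, 15.6 and 23.4 CPM, and at 15 h 17.9, 32.7, 23.2 and 16.7 CPM. The 5 h libraries stood clear of all others in both assays, while those of 10 h overlapped those of 0 h. Footprints were 6.61-fold higher at 5 h than at 0 h (log2 2.72 ± 0.16, adjusted p = 3.82e-20) and RNA 5.26-fold higher (log2 2.40 ± 0.27, adjusted p = 2.07e-07). From there footprints were 5.73-fold lower at 10 h than at 5 h (log2 -2.52 ± 0.13, adjusted p = 8.28e-21), the steepest fall of the 10 members over that interval. At 10 h against 0 h the difference was 0.20 ± 0.18, adjusted p = 0.299 in footprints and -0.10 ± 0.31, adjusted p = 0.808 in RNA, neither called. A second, small footprint rise was called at 15 h against 10 h (0.43 ± 0.15, adjusted p = 0.0209), but was lost without footprint replicate 1 or 2 of 10 h or replicate 3 or 4 of 15 h, with adjusted p reaching 0.109. It was 0.09 (adjusted p = 0.792) when all libraries were thinned to the smallest total.

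DUSP4, a nuclear phosphatase related to DUSP1 and encoded on chromosome 8, moved the opposite way, and its footprints went on falling. In footprints DUSP4 had at 0 h 60.4, 58.4, 55.2 and 58.8 CPM, at 5 h 26.8, 30.5, 28 and 27.6 CPM, at 10 h 22, 19.8, 20 and 23.7 CPM, and at 15 h 16.6, 12, 12.3 and 12 CPM. Its RNA levels were at 0 h 29.1, 60.4, 43.3 and 41.9 CPM, at 5 h 19, 25.1, 16.5 and 28.1 CPM, at 10 h 14.3, 32.7, 21.9 and 15.3 CPM, and at 15 h 3.15, 15, 14.2 and 7.29 CPM. In footprints no 2 neighbouring times overlapped, whereas in RNA 5 h overlapped 10 h and 10 h overlapped 15 h. Footprints fell by 1.04 on the log2 scale at 5 h against 0 h (SE 0.08, adjusted p = 3.50e-15) and by 2.18 at 15 h against 0 h (SE 0.09, adjusted p = 5.37e-24), when they were 4.52-fold lower. Each step was called in footprints, with -0.41 ± 0.09, adjusted p = 7.41e-05 at 10 h against 5 h and -0.73 ± 0.10, adjusted p = 8.95e-08 at 15 h against 10 h. RNA was lower at 5 h (-0.96 ± 0.33, adjusted p = 0.024) and at 15 h (-2.14 ± 0.38, adjusted p = 4.05e-05) than at 0 h. Its later steps were not called, with -0.10 ± 0.35, adjusted p = 0.891 at 10 h against 5 h and -1.08 ± 0.40, adjusted p = 0.113 at 15 h against 10 h. The RNA call at 5 h was lost without RNA replicate 2 of 0 h (-0.82, adjusted p = 0.0805) or replicate 1 (-0.89, 0.0591) or 3 (-0.82, 0.0839) of 5 h. That at 10 h against 0 h (-1.06 ± 0.32, adjusted p = 0.0106) was lost without RNA replicate 2 of 0 h (-0.85, adjusted p = 0.0563).

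**Figure D3:**
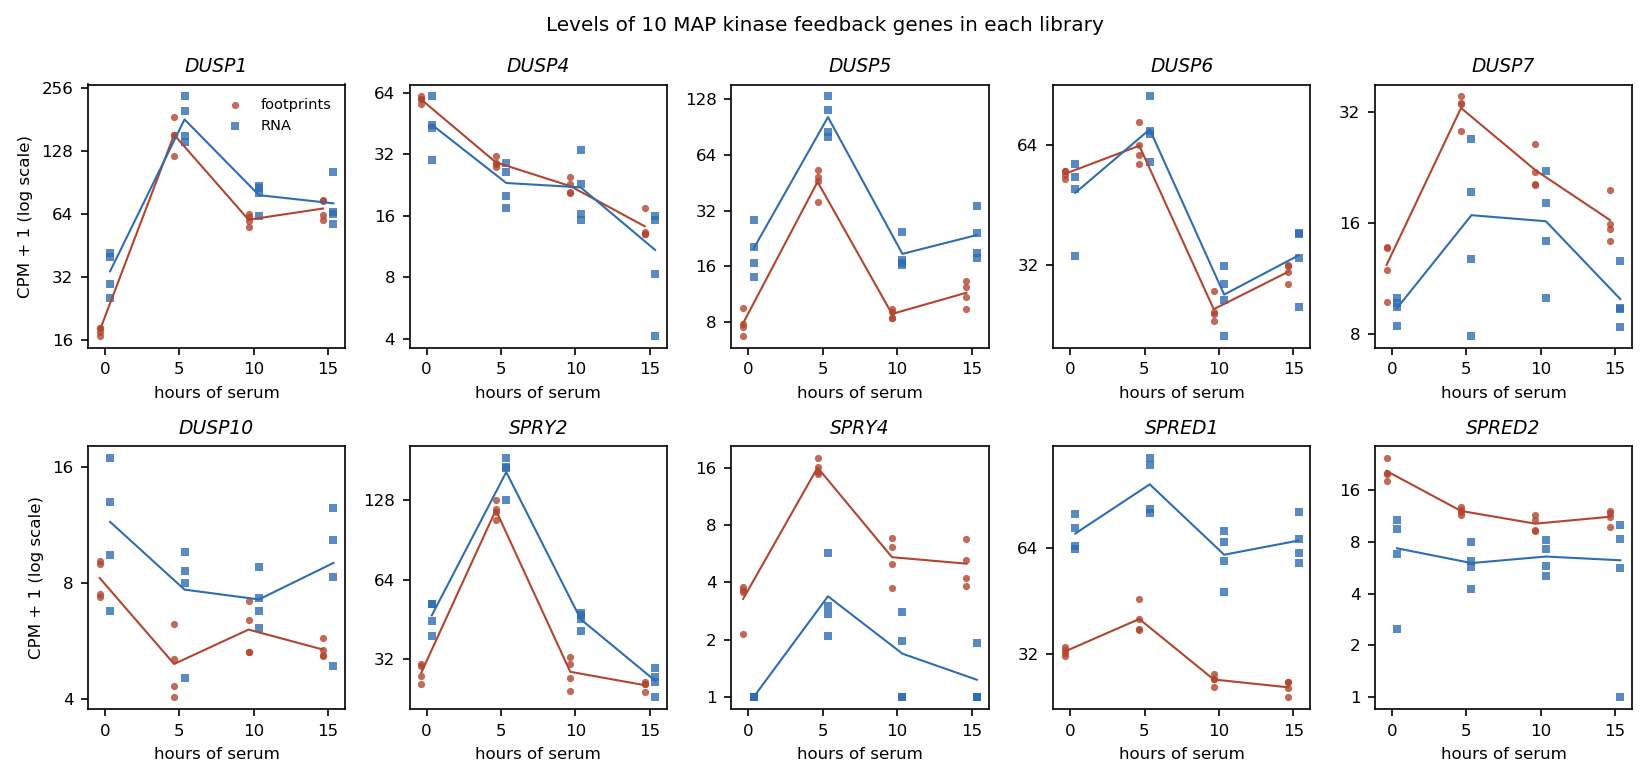
Level of each of the 10 members in every library against hours of serum, as CPM + 1 on a log scale, with footprints as circles drawn left of RNA as squares, and a line through the mean of 4 libraries. DUSP1, DUSP5, SPRY2 and SPRY4 are highest at 5 h among the 4 times sampled, and DUSP4 footprints decline throughout, to 13.2 ± 2.23 CPM at 15 h.

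DUSP6, a cytoplasmic phosphatase specific for ERK and the member used most often as a readout of ERK activity, changed little at 5 h and was lower afterwards. The DUSP6 footprint libraries had at 0 h 52.7, 54.2, 54 and 51.6 CPM, at 5 h 59.5, 56.1, 63 and 72.1 CPM, at 10 h 23.1, 23.4, 26.5 and 22.2 CPM, and at 15 h 29.7, 27.6, 30.8 and 31 CPM. Its RNA levels were at 0 h 32.7, 48.7, 56.3 and 52.3 CPM, at 5 h 56.9, 67.2, 83.6 and 68.2 CPM, at 10 h 27.7, 30.8, 20.3 and 25.2 CPM, and at 15 h 24.2, 37.4, 32.3 and 37.5 CPM. Footprints at 5 h lay just above those of 0 h with no overlap, and those of 10 and 15 h lay well below both. The rise at 5 h against 0 h was 1.18-fold in footprints (0.24 ± 0.07, adjusted p = 0.00261) and 1.47-fold in RNA (0.55 ± 0.20, adjusted p = 0.0354). At 10 h footprints were 2.22-fold lower than at 0 h (-1.15 ± 0.08, adjusted p = 4.32e-16) and RNA 1.79-fold lower (-0.84 ± 0.22, adjusted p = 0.00344). Footprints at 15 h against 0 h gave -0.84 ± 0.08, adjusted p = 2.16e-12. At 15 h they were above those at 10 h by 0.31 ± 0.08, adjusted p = 0.0025, a difference that was 0.27 (adjusted p = 0.116) in thinned libraries. The RNA rise at 5 h was lost without RNA replicate 1, 2 or 4 of 0 h or replicate 2, 3 or 4 of 5 h (adjusted p up to 0.187), with DESeq2 (0.0589) and with no filter on low counts (0.0575). The RNA difference at 15 h against 0 h (-0.52 ± 0.21, adjusted p = 0.0454) was lost under 7 of 8 such omissions, the exception being replicate 1 of 0 h, and its adjusted p reached 0.290. It was also lost with RLE factors (0.0537), DESeq2 (0.0763), no filter (0.202) and only those times fitted (0.0854).

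DUSP7, the close cytoplasmic relative of DUSP6, followed another course. DUSP7 footprints measured at 0 h 10.9, 12.7, 12.7 and 8.77 CPM, at 5 h 32.8, 34.3, 32.7 and 27.5 CPM, at 10 h 21, 19.3, 19.5 and 25.2 CPM, and at 15 h 18.6, 13.3, 14.4 and 14.9 CPM. No 2 times overlapped: every library with serum was above every starved one, and levels stepped down after 5 h. Footprints were 2.82-fold higher at 5 h than at 0 h (1.5 ± 0.13, adjusted p = 3.11e-14), 1.87-fold at 10 h (0.90 ± 0.13, adjusted p = 4.15e-08) and 1.32-fold at 15 h (0.41 ± 0.14, adjusted p = 0.00674). The last was lost without footprint replicate 4 of 0 h (0.28, adjusted p = 0.0765) and in thinned libraries (0.27, adjusted p = 0.165). RNA was low, and its counts were at 0 h 7, 7, 6 and 6, at 5 h 4, 26, 10 and 17, at 10 h 13, 22, 11 and 10, and at 15 h 7, 9, 9 and 8. The libraries of neighbouring times overlapped in RNA. No library of 0 or 15 h reached the level of the filter on low counts, so DUSP7 was tested in RNA only because of its levels at 5 and 10 h. Its RNA rise at 5 h against 0 h (0.98 ± 0.39, adjusted p = 0.0436) rested on these counts and was lost in 6 of 8 omissions of 1 RNA library, those of any 0 h replicate or of replicate 2 or 4 of 5 h. The estimate without replicate 2 of 5 h was 0.57, adjusted p = 0.269. RNA at 10 h against 0 h gave 0.84 ± 0.38, adjusted p = 0.0745, not called, but called without RNA replicate 4 of 10 h (1.05, adjusted p = 0.0330). The 5 h call was also lost with DESeq2 (adjusted p = 0.0881), with RLE factors (0.0508) and with no filter on low counts (0.0553).

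DUSP10 dephosphorylates JNK and p38 rather than ERK, and was lower in footprints at every time with serum. In footprints DUSP10 had at 0 h 6.51, 6.37, 7.96 and 8.12 CPM, at 5 h 5.27, 3.31, 4.09 and 3.04 CPM, at 10 h 4.3, 6.2, 5.41 and 4.31 CPM, and at 15 h 4.37, 4.16, 4.21 and 4.75 CPM. Every library with serum was below every starved one, while the 5, 10 and 15 h libraries overlapped each other. The difference was -0.90 ± 0.19, adjusted p = 3.70e-05 at 5 h against 0 h, -0.52 ± 0.17, adjusted p = 0.00568 at 10 h and -0.75 ± 0.18, adjusted p = 0.000219 at 15 h. Its RNA counts, too few for the test, were at 0 h 7, 15, 4 and 8, at 5 h 5, 7, 3 and 7, at 10 h 5, 6, 5 and 7, and at 15 h 11, 10, 3 and 7. They overlapped between all times.

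SPRY2, an inhibitor that ERK signalling induces and that acts on the receptor to Ras step, was highest at 5 h among the 4 times sampled. The SPRY2 footprint libraries had at 0 h 24.6, 29.1, 29.5 and 26.5 CPM, at 5 h 107, 114, 118 and 127 CPM, at 10 h 31.6, 23.1, 25.9 and 29.5 CPM, and at 15 h 23, 24.8, 24.7 and 25.1 CPM. Its RNA levels were at 0 h 43.6, 38.1, 50.5 and 50.8 CPM, at 5 h 128, 185, 171 and 169 CPM, at 10 h 39.9, 44.2, 46.8 and 45.9 CPM, and at 15 h 25.2, 26.2, 28.4 and 21.9 CPM. The 5 h libraries lay far above every other library in both assays, and the 10 h libraries overlapped those of 0 h in both. Footprints were 4.22-fold higher at 5 h than at 0 h (2.08 ± 0.08, adjusted p = 8.84e-25) and RNA 3.6-fold higher (1.85 ± 0.16, adjusted p = 9.69e-09). At 10 h against 0 h no change was called, with -0.01 ± 0.09, adjusted p = 0.914 in footprints and -0.04 ± 0.17, adjusted p = 0.896 in RNA. At 15 h RNA was 1.79-fold lower than at 0 h (-0.84 ± 0.19, adjusted p = 0.000726), with every 15 h library below every other RNA library. Footprints at 15 h differed from 0 h by -0.17 ± 0.10, adjusted p = 0.101, not called. The RNA step at 15 h against 10 h (-0.80 ± 0.18, adjusted p = 0.00825) had an adjusted p of 0.0556 without RNA replicate 4 of 15 h.

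SPRY4, a second Sprouty of the same pathway, was the least abundant member in RNA and rose strongly in footprints. SPRY4 footprints measured at 0 h 2.66, 2.76, 2.54 and 1.14 CPM, at 5 h 14.1, 13.7, 15.2 and 17 CPM, at 10 h 5.82, 2.74, 4.0 and 5.14 CPM, and at 15 h 5.75, 2.85, 3.21 and 4.25 CPM. All 5 h libraries stood above all others and all 15 h libraries above those of 0 h, while the lowest 10 h library was just within the range of 0 h. Footprints were 6.84-fold higher at 5 h than at 0 h (2.77 ± 0.27, adjusted p = 4.10e-14), 1.98-fold at 10 h (0.99 ± 0.29, adjusted p = 0.00155) and 1.71-fold at 15 h (0.78 ± 0.30, adjusted p = 0.0136). Without footprint replicate 4 of 0 h, the lowest of its group, the 15 h value was 0.50 (adjusted p = 0.117). The RNA counts were at 0 h 0, 0, 0 and 0, at 5 h 1, 2, 4 and 1, at 10 h 0, 1, 0 and 2, and at 15 h 0, 1, 0 and 0. No read was seen at 0 h in any RNA library, so no RNA fold is given, and 0 reads over those 4 libraries allow up to 1.01 CPM (3 counts of their summed total, counting error only). In a fit with no filter on low counts, over 15958 genes, RNA at 5 h against 0 h had an adjusted p of 0.0249, on 8 reads against 0.

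SPRED1, whose loss causes Legius syndrome through its part in recruiting neurofibromin, changed by small amounts. In footprints SPRED1 had at 0 h 31.4, 31.9, 30.7 and 32.5 CPM, at 5 h 36.7, 44.7, 36.5 and 39.2 CPM, at 10 h 26.3, 24.8, 27.2 and 26.3 CPM, and at 15 h 23.2, 24.6, 25.7 and 25.8 CPM. Its RNA levels were at 0 h 78.7, 62.5, 63.5 and 71.7 CPM, at 5 h 81.1, 79.2, 108 and 114 CPM, at 10 h 47.1, 65.3, 57.8 and 70.3 CPM, and at 15 h 79.8, 60.7, 56.8 and 66.7 CPM. Footprints at 5 h lay above those of 0 h, and those of 10 and 15 h below, without overlap. The rise at 5 h against 0 h was 1.24-fold in footprints (0.31 ± 0.08, adjusted p = 0.000588), and the fall was 1.21-fold at 10 h (-0.27 ± 0.08, adjusted p = 0.00287) and 1.26-fold at 15 h (-0.34 ± 0.08, adjusted p = 0.000336). RNA was 1.39-fold higher at 5 h (0.47 ± 0.18, adjusted p = 0.0408), and at 15 h against 0 h gave -0.06 ± 0.18, adjusted p = 0.787. The RNA call at 5 h was lost without any 0 h replicate or replicate 3 or 4 of 5 h (adjusted p up to 0.187), with DESeq2 (0.0761), with RLE factors (0.0602) and with no filter (0.0703). The RNA fall at 10 h against 5 h (-0.67 ± 0.18, adjusted p = 0.00853) was lost without RNA replicate 3 of 5 h (-0.56, adjusted p = 0.0540) or replicate 1 of 10 h (-0.52, 0.0511).

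SPRED2, the second Spred, fell in footprints at 5 h and stayed low. The SPRED2 footprint libraries had at 0 h 17.2, 18.9, 19.1 and 23.7 CPM, at 5 h 11.3, 10.4, 11 and 11.8 CPM, at 10 h 10.5, 8.35, 8.32 and 9.78 CPM, and at 15 h 10.8, 10.2, 11.2 and 8.75 CPM. Every library with serum lay below every starved one, and the 5, 10 and 15 h libraries overlapped each other. Footprints were 1.79-fold lower at 5 h than at 0 h (-0.84 ± 0.12, adjusted p = 3.32e-08), 2.18-fold at 10 h (-1.13 ± 0.12, adjusted p = 4.09e-11) and 1.96-fold at 15 h (-0.97 ± 0.12, adjusted p = 1.12e-09). Its RNA counts, outside the test, were at 0 h 8, 8, 4 and 1, at 5 h 3, 7, 4 and 3, at 10 h 4, 5, 4 and 8, and at 15 h 7, 5, 7 and 0, and overlapped between all times. Between the related genes, SPRY2 and SPRY4 were both higher at 5 h, SPRED1 was higher and SPRED2 lower, and DUSP7 and DUSP6 were higher by the unequal amounts given above.

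The 3 comparisons with 0 h share its libraries. At 10 h against 0 h, 3 members were higher in footprints (DUSP1, SPRY4 and DUSP7) and 5 lower (DUSP6, DUSP4, SPRED2, DUSP10 and SPRED1), where 39.4% of all genes were called higher and 39.0% lower. At 15 h against 0 h, 4 were higher (those 3 and DUSP5) and 5 lower (those 5), where 40.1% and 39.6% of all genes were called. In libraries thinned to the smallest footprint total, 2 were called higher at 15 h, with DUSP5 (0.44, adjusted p = 0.0548) and DUSP7 (0.27, adjusted p = 0.165) no longer called. In RNA, DUSP1 was higher and DUSP4 and DUSP6 lower at 10 h, where 23.3% of genes were called higher and 21.5% lower. At 15 h, DUSP1 was higher and DUSP4, DUSP6 and SPRY2 lower, with 25.4% called in each direction.

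Between 5 and 10 h most members fell. At 10 h against 5 h, 9 of 10 members were lower in footprints and 0 higher, where 30.7% of all genes were called lower and 31% higher. The median log2 change of the members was -0.98, against -0.01 for all genes. DUSP10 was the exception, at 0.37 ± 0.18, adjusted p = 0.0717, and was called higher without footprint replicate 1 of 5 h (0.57, adjusted p = 0.0123) or replicate 1 or 4 of 10 h (0.46 and 0.45, adjusted p = 0.0362 and 0.0419). The SPRED2 step (-0.29 ± 0.12, adjusted p = 0.045) was lost in 6 of 8 omissions of 1 footprint library, those of replicate 1, 3 or 4 of 5 h or replicate 2, 3 or 4 of 10 h. It was -0.09 (adjusted p = 0.731) in thinned libraries. In RNA 5 of 7 members were lower (DUSP5, SPRY2, DUSP6, DUSP1 and SPRED1) and 0 higher, where 9.56% of genes were called lower and 10.1% higher. DUSP4 and DUSP7 were the other two, at -0.10 ± 0.35, adjusted p = 0.891 and -0.15 ± 0.33, adjusted p = 0.815. At 15 h against 10 h, DUSP5 and DUSP6 were higher and DUSP4 and DUSP7 lower in footprints, where 20.8% of genes were called higher and 20.2% lower. In RNA SPRY2 alone was called, lower, where 2.11% of genes were called lower and 3.81% higher.

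Levels were compared between members per kilobase of coding length. At 5 h the highest mean footprint level was that of DUSP1, with 146 ± 25.3 CPM per kb, beside 131 ± 9.56 for SPRY2, and the lowest was that of DUSP10, with 2.83 ± 0.720 CPM per kb. DUSP6 with 57.7 ± 6.35 and DUSP5 with 40.9 ± 6.8 CPM per kb came next after those 2 leading genes. At 0 h the order was another, with DUSP4 first at 51.7 ± 1.92 CPM per kb and DUSP6 next at 48.9 ± 1.11, and SPRY4 last at 2.5 ± 0.841. The libraries of DUSP1 and SPRY2 overlapped per length at 5 h, as did those of DUSP4 and DUSP6 at 0 h, so neither order is beyond their spread. In RNA SPRY2 was highest at 5 h with 183 ± 27.6 CPM per kb and DUSP1 had 173 ± 41.5, values that differed by less than the spread.

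Footprint change minus RNA change, the change of translational efficiency (TE), was tested as the interaction of assay and time over all 32 libraries and 8736 genes, which include 7 members. At 5 h against 0 h 0 members were called with edgeR, 1 had an unadjusted p under 0.05 and DESeq2 called 1, where 4.62% of all genes were called higher and 1.77% lower. The member with the largest change was DUSP1, with 0.71 ± 0.27, adjusted p = 0.121 by edgeR and 0.76, adjusted p = 0.0448 by DESeq2. Its adjusted p was 0.0225 (log2 0.93) without RNA replicate 2 of 5 h. At 10 h against 0 h 0 were called, 1 had an unadjusted p under 0.05 and DESeq2 called 0, where 7.69% of genes were called higher and 1.01% lower.

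**Figure D4:**
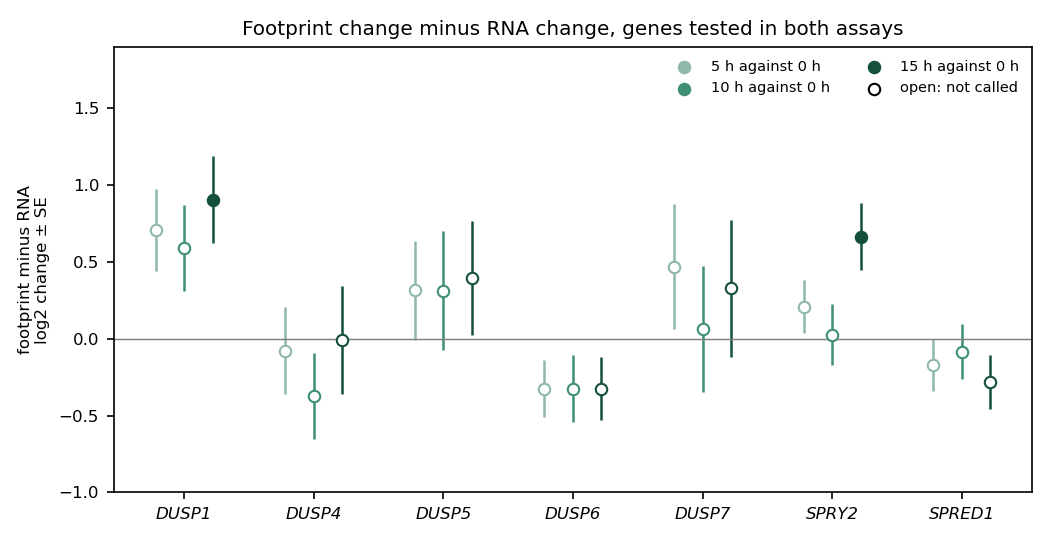
Footprint log2 change minus RNA log2 change ± SE at 5, 10 and 15 h against 0 h for the 7 members tested in both assays, from the joint edgeR fit (n = 4 libraries per assay and time), with filled points called and open points not. The 2 filled points are DUSP1, at 0.91, and SPRY2, at 0.67, both at 15 h.

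At 15 h against 0 h 2 members were called higher, DUSP1 with 0.91 ± 0.28, adjusted p = 0.0294 and SPRY2 with 0.67 ± 0.22, adjusted p = 0.0335, where 11.2% of all genes were called higher and 1.77% lower. For SPRY2 it is a footprint change of -0.17 ± 0.10 beside an RNA change of -0.84 ± 0.19. For DUSP1 it is a footprint rise of 1.99 ± 0.15 beside an RNA rise of 1.10 ± 0.24. Neither call held throughout. DUSP1 was not called without RNA replicate 1 or 3 of 0 h or RNA replicate 1, 2 or 4 of 15 h, with adjusted p up to 0.160. It was also not called with same-numbered footprint and RNA libraries of each time as a block (0.90, adjusted p = 0.0678). SPRY2 was not called without RNA replicate 1, 3 or 4 of 0 h, RNA replicate 1, 2 or 4 of 15 h, or footprint replicate 1 or 4 of 0 h, with adjusted p up to 0.184, nor with no filter on low counts (0.62, adjusted p = 0.104). The other 5 members ranged from -0.32 for DUSP6 to 0.40 for DUSP5 at 15 h, with SEs of 0.18 to 0.45, so changes of that size were not detectable at this depth. At 10 h against 5 h 0 members were called by edgeR, 0 had an unadjusted p under 0.05 and DESeq2 called 0, where 0.721% of genes were called higher and 0.0343% lower. At 15 h against 10 h 0 were called, 1 had an unadjusted p under 0.05 and DESeq2 called 0, where 0% of genes were called in either direction.

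**Figure D5:**
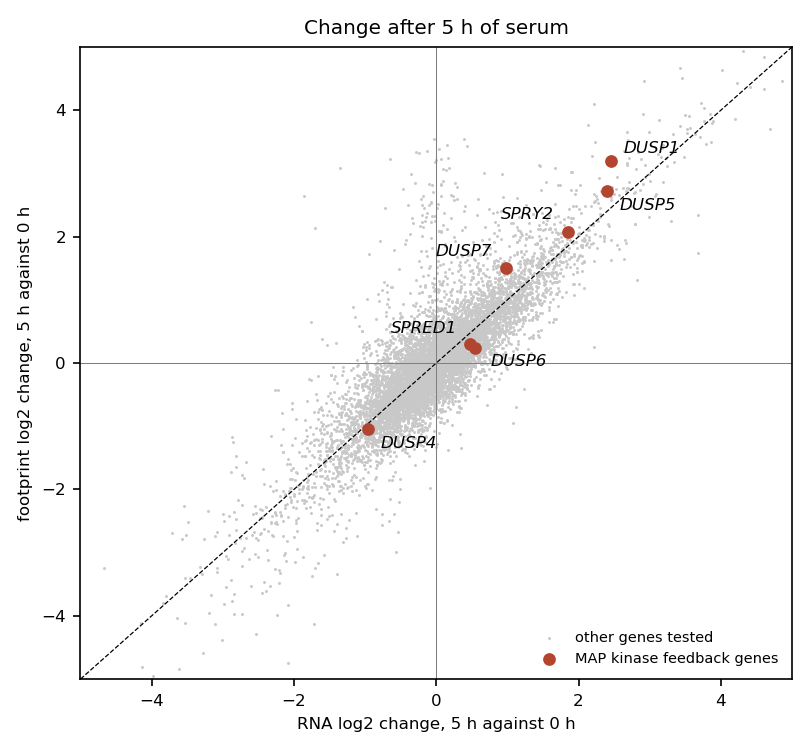
Footprint log2 change (vertical) against RNA log2 change (horizontal) at 5 h against 0 h, with the 7 members tested in both assays in red and the other genes tested in both in grey, and the dashed line marking equal change. The axes stop at 5 in each direction and leave out 15 genes, and the members lie near the dashed line from DUSP4 at the lower left to DUSP1 at the upper right.

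The ratio of footprints to RNA at a given time is stated as log2 of the mean footprint CPM over the mean RNA CPM, less the median of that ratio over all genes tested in both assays. SPRED1 and DUSP5 lay below the median at all 4 times. At 0 h SPRED1 was at -0.79 ± 0.08 and DUSP5 at -1.12 ± 0.27, above 23.4% and 15.8% of those genes. DUSP10 was below it too, at -0.20 ± 0.31 at 0 h and -0.06 ± 0.19 at 10 h, both within 1 SE. SPRED2, DUSP7, DUSP4 and DUSP6 lay above the median at all 4 times, at 1.97 ± 0.42, 0.76 ± 0.13, 0.75 ± 0.21 and 0.50 ± 0.16 at 0 h. At 10 h DUSP4, with 0.26 ± 0.30, and DUSP6, with 0.12 ± 0.13, were within 1 SE of it, as was DUSP6 at 15 h. The values of SPRED2 and DUSP10 rest on few RNA reads. SPRY4, which has no ratio at 0 h, was at 3.03 ± 0.49 at 5 h on 8 RNA reads in all, and SPRY2 was below the median at 0, 5 and 10 h and at 0.17 ± 0.08 at 15 h. DUSP1 was at -0.65 ± 0.17 in starved cells (0 h), and with serum at 0.12 ± 0.21 (5 h), -0.15 ± 0.11 (10 h) and 0.15 ± 0.22 (15 h).

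The wider pathway was counted in 5 further lists at 5 h against 0 h. Of the other ERK-dependent transcripts, 14 of 17 tested were higher and 1 lower in footprints, and 10 of 15 higher and 1 lower in RNA. Of all genes, 35.2% were called higher and 40.5% lower in footprints and 19.2% higher and 16.7% lower in RNA, the shares against which the counts of all 5 lists are read. Their median log2 change was 1.81 in footprints, against -0.07 for all genes. HBEGF, a ligand of the EGF receptor, had 91.7 ± 11.4 CPM of footprints at 5 h and 2.91 ± 0.782 CPM at 0 h, a log2 change of 4.94 ± 0.22, adjusted p = 8.46e-26. In RNA it changed by 4.31 ± 0.37, adjusted p = 1.59e-10. LIF, a cytokine of the IL-6 family, changed by 5.03 ± 0.29, adjusted p = 2.32e-12 in footprints and 4.19 ± 0.37, adjusted p = 5.64e-10 in RNA. PLAUR, the urokinase receptor, changed by 3.70 ± 0.07, adjusted p = 2.93e-35 in footprints and 3.52 ± 0.14, adjusted p = 4.65e-14 in RNA. FOSL1, an AP-1 subunit, changed by 4.46 ± 0.09, adjusted p = 1.43e-35 in footprints and 2.92 ± 0.85, adjusted p = 0.00181 in RNA. RNA reads at 0 h summed to 14 for HBEGF, 16 for LIF and 5 for FOSL1 over the 4 libraries, and 26 of the 45 FOSL1 reads at 5 h were in 1 library. No 0 h library of these 3 genes reached the level of the filter on low counts, so they were tested in RNA because they were higher with serum. Their RNA values are a description, and their place among the 10 of 15 is no independent result. The footprint changes of these 4 exceed that of each of the 10 members. The 4 were named for having the largest called RNA changes of their list at 5 h, whereas the members are given whatever their values. The difference is therefore no comparison of the list with the members. The transcript that was lower in both assays was ETV5, an ETS factor named after its values were seen, with -1.10 ± 0.07 (adjusted p = 5.45e-18) in footprints and -0.84 ± 0.25 (adjusted p = 0.0122) in RNA.

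Among other MAP kinase phosphatase, Sprouty and Spred genes, 4 of 10 tested were higher and 2 lower in footprints, and 2 of 4 were higher in RNA. The footprint share of 4 in 10 is near the 35.2% of all genes. Their median log2 change was 0.37 in footprints and 0.73 in RNA. The 2 were DUSP14, with 1.71 ± 0.21, adjusted p = 1.13e-06 in RNA and 1.84 ± 0.08, adjusted p = 4.94e-23 in footprints, and DUSP3, with 1.42 ± 0.24, adjusted p = 6.85e-05 in RNA and 1.40 ± 0.12, adjusted p = 2.51e-14 in footprints. The 2 that were lower in footprints were DUSP19 and SPRY1, named after their values were seen. With no filter on low counts, which let in further genes of this list of 12, 5 were called in RNA. That count is therefore not over the same 4 genes. Of the ERK cascade itself, 9 of 25 tested were higher and 9 lower in footprints, and 3 of 23 were higher and 0 lower in RNA. The footprint shares are near the 35.2% and 40.5% of all genes, and the RNA shares are below 19.2% and 16.7%. The medians were -0.02 in footprints and 0.12 in RNA. The 3 were the ERK-activated kinase RPS6KA3 (RNA 1.93 ± 0.16, adjusted p = 8.20e-09), the ERK-activating kinase MAP2K1 (RNA 1.69 ± 0.23, adjusted p = 4.58e-06) and the Ras gene NRAS (RNA 1.10 ± 0.31, adjusted p = 0.00779), whose call was lost without RNA replicate 2 of 0 h (0.86, adjusted p = 0.0521). With the replicate number as a block, or without RNA replicate 2 or 3 of 5 h, 5 of the list were called in RNA.

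Of the p38 and JNK kinases, 6 of 12 tested were higher and 3 lower in footprints, and 3 of 10 were higher and 0 lower in RNA, or 6 called with the replicate number as a block and 1 without RNA replicate 4 of 0 h or replicate 2 of 5 h. Of all genes 35.2% were higher and 40.5% lower in footprints, and 19.2% and 16.7% in RNA. Their medians were 0.31 in footprints and 0.51 in RNA. The 3 were the p38-activating kinase MAP2K3 (RNA 1.67 ± 0.58, adjusted p = 0.0229), the nuclear kinase RPS6KA4 (RNA 1.23 ± 0.23, adjusted p = 0.000295) and the JNK gene MAPK9 (RNA 0.51 ± 0.17, adjusted p = 0.024). MAP2K3 reached the filter's level in all 4 RNA libraries of 5 h and in 1 of each other time. It passed the filter only because of 5 h, so its place in the RNA count is no independent result. Its call was lost without RNA replicate 1 (1.49, adjusted p = 0.0682) or 4 (1.37, 0.0727) of 0 h or replicate 2 of 5 h (1.16, 0.117). The MAPK9 call was lost without RNA replicate 1, 3 or 4 of 0 h or replicate 2 or 3 of 5 h (0.41 to 0.45, adjusted p 0.0701 to 0.0972). With no filter on low counts the adjusted p was 0.0645 for MAP2K3 and 0.0513 for MAPK9. Of the factors that bind AU-rich elements and hasten or delay decay of short-lived mRNAs, 5 of 6 were higher and 1 lower in footprints (35.2% and 40.5% of all genes), with a median of 0.29. The lower one was ZFP36L2, named after its values were seen, with -1.51 ± 0.11, adjusted p = 7.07e-14. In RNA 0 of the 3 tested were called by edgeR, and 0 had an unadjusted p under 0.05. DESeq2 called 0 of them. Of the whole list, 1 gene was called without RNA replicate 2 of 0 h, without any single RNA replicate of 5 h, or with no filter on low counts. The genes tested can differ in those fits, so the gene called need not be 1 of the 3.

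For the 7 members tested in RNA, the genes most like each were sought among 7422 genes with a mean of at least 10 CPM in both assays, by Pearson's correlation of log2(CPM + 1) centred within each assay over the 32 libraries. These libraries share 4 times and their depth, so a correlation mainly says that a gene has the same course over time, and no p is given. For DUSP1 they were LIF (r = 0.971) and ID1 (0.966), an inhibitor of basic helix-loop-helix factors. For SPRY2 they were PDLIM4 (0.972) and the AP-1 subunit JUNB (0.957), and for DUSP5 FNDC3A (0.932) and the cytokine IL6 (0.927). DUSP6 was most like the retinol dehydrogenase gene RDH10 (0.928) and the G protein regulator RGS3 (0.913). DUSP4, the falling member, was most like FKBP8 (0.951) and BSG (0.944). The other values were lower, with FAM83G (0.852) and KRT8 (0.849) for DUSP7 and APPL2 (0.867) and LPGAT1 (0.844) for SPRED1.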

How the data were processed

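The deposited table holds whole-number counts per gene, with no normalisation. Per the submitters' processing notes, the authors aligned reads to GRCh38 with STAR 2.5.4a and counted them with featureCounts 1.5.1. The annotation release, strand setting, counting parameters and handling of molecular identifiers are not given in the sources used here. Per the labels' protocols, RNA was extracted with Qiazol, depleted of ribosomal RNA and made into libraries with a QIAseq miRNA kit. The deposited lengths are multiples of 3 in 96.46% of genes and are read as coding lengths. Of the 19023 identifiers 18905 were matched to a symbol.

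Libraries were scaled with TMM, genes kept by filterByExpr, and the 4 times fitted together with edgeR 4.0.16 (R 4.3.3) quasi-likelihood tests, separately for 16 footprint and 16 RNA libraries, with Benjamini-Hochberg adjustment over all genes tested. CPM uses the TMM-scaled total of the kept genes. Translational efficiency was the assay by time interaction in a joint fit. SEs come from the fit's information matrix and quasi-dispersion. Tests are 2-sided, and p-values measure the spread between 4 labelled biological replicates. DESeq2 1.42.0, RLE factors, no filter, replicate blocks, thinned counts, fits of single pairs of times and omission of each library were alternatives. Replicate numbers pair the RNA samples of 15 h and 0 h by the rule used, since all 4 same-numbered pairs correlated in their deviations from group means at 0.118 to 0.322, and no member's call changed there with the block. The genes named from other lists are up to 4 called in RNA at 5 h with the largest change. The members and lists were chosen with earlier results of these data known.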

Additional observations from a re-analysis of the deposited data

Results flagged for a closer look

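Among 79 groups of 4 libraries (10 members in both assays and 4 times, leaving out the group without any count), 4 held 1 library far from its neighbours by Dixon's criterion, which chance meets in about 1 of 20 groups. DUSP4 footprints at 15 h were 16.6 CPM in replicate 1 and 12, 12.3 and 12 CPM in the others, and all 4 stayed below every library of 10 h. DUSP5 RNA at 10 h was 23.4 CPM in replicate 4 and 15.4, 16.3 and 15.6 CPM in the others. SPRY4 footprints at 0 h were 1.14 CPM in replicate 4 and 2.66, 2.76 and 2.54 CPM in the others, on 7 reads against 9 to 15. Without that library the SPRY4 change at 15 h against 0 h was no longer called. SPRY4 RNA at 15 h was 0.934 CPM in replicate 2, which is 1 read, and 0 in the others.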

How the results depend on the processing

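In footprints the number of members called was 10 at 5 h against 0 h under every alternative run. It was 8 at 10 h against 0 h under every omission of 1 library. With 1 footprint library left out it was 7 to 9 at 15 h against 0 h, 8 to 10 at 10 h against 5 h and 3 to 4 at 15 h against 10 h, where libraries thinned to the smallest total gave 2 in place of 4. Thinning also left 2 members called higher at 15 h against 0 h in place of 4. The 7 RNA calls at 5 h against 0 h became 4 with DESeq2 and 3 to 6 without 1 library: 3 without replicate 2 of 0 h, and 4 without replicate 1 or 4 of 0 h or replicate 3 or 4 of 5 h. The DUSP1, DUSP5 and SPRY2 calls were kept in all of these. The RNA count was 2 to 4 at 10 h and 3 to 4 at 15 h against 0 h, 4 to 5 at 10 h against 5 h, and 0 to 1 at 15 h against 10 h (0 without replicate 4 of 15 h). For translational efficiency it was 0 to 1 at 5 h against 0 h (1 with DESeq2, or without RNA replicate 2 of 5 h) and stayed at 0 in every omission in the other 3 comparisons apart from 15 h against 0 h. At 15 h against 0 h it was 0 to 2: 0 without RNA replicate 1 or 3 of 0 h or RNA replicate 1, 2 or 4 of 15 h. It was 1 without RNA replicate 4 or footprint replicate 1 or 4 of 0 h, or with no filter on low counts. It was also 1 with same-numbered footprint and RNA libraries of each time as a block. The cause of these changes was not tested.

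The replicate number as a block gave 2 RNA members called at 15 h against 10 h in place of 1, adding DUSP4 (-1.09, adjusted p = 0.0131), and added DUSP7 in RNA at 10 h against 0 h (0.84, adjusted p = 0.0493). It removed SPRED2 in footprints at 10 h against 5 h (-0.28, adjusted p = 0.0555). Over all genes it called 1170 in RNA at 15 h against 10 h in place of 519. That comparison had 3 of 4 same-numbered pairs correlated at 0.216 to 0.539 and 1 at 0.043, so whether the numbers pair those samples cannot be settled. In the other comparisons apart from RNA at 15 h against 0 h, 0 to 3 of 4 pairs were above 0.1, short of the rule, and same-numbered footprints and RNA correlated between -0.177 and 0.0929.

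Values that changed sign were not called under any alternative. Footprints of SPRY2 at 10 h against 0 h (-0.01) were 0.056 with no filter and 0.079 in thinned libraries, and ran from -0.085 to 0.065 without 1 library. Footprints of DUSP10 at 15 h against 10 h (-0.23) were 0.19 in thinned libraries. With no filter SPRY2 RNA at 10 h against 0 h (-0.04) was 0.032 and SPRED1 RNA at 15 h against 0 h (-0.06) was 0.042. Without 1 library they ran from -0.14 to 0.066 and from -0.12 to 0.076, DUSP5 RNA at 10 h against 0 h from -0.27 to 0.15, and DUSP7 RNA at 15 h against 0 h from -0.014 to 0.26. In RNA at 10 h against 5 h DUSP4 ran from -0.37 to 0.094 and DUSP7 from -0.34 to 0.27. For translational efficiency against 0 h, DUSP4 ran from -0.24 to 0.14 at 5 h and from -0.41 to 0.23 at 15 h. At 10 h DUSP7 ran from -0.16 to 0.25, SPRY2 from -0.080 to 0.13 and SPRED1 from -0.25 to 0.00046. RNA depth limits the members: SPRY4, SPRED2 and DUSP10 had 0 to 15 reads per RNA library, and differences of their RNA were not detectable at this depth with the filter in place. DESeq2 called 118 genes for translational efficiency at 10 h against 5 h where edgeR called 66, and 2 at 15 h against 10 h where edgeR called 0.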
